A study of Mus musculus with 12 samples.

Results

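The genes described here belong to prostaglandin synthesis, breakdown and reception in the mouse fibroblast line 3T3-L1, which was derived from embryos and can be differentiated into adipocytes. They were chosen by name as genes of this pathway, with earlier results of these data known: Pla2g4a, Ptgs1, Ptgs2, Ptges, Ptgis, Hpgd, Ptger2, Ptger4 and Ptgfr, 9 of the 56941 genes in the deposited table, each found there once. In the mouse genome Pla2g4a and Ptgs2 are on chromosome 1, Ptgs1, Ptges and Ptgis on chromosome 2, Ptgfr on chromosome 3, Hpgd on chromosome 8, Ptger2 on chromosome 14 and Ptger4 on chromosome 15. RNA was sequenced from 12 libraries, 3 in each of 4 conditions, all from wild-type cells and all 24 hours after the start of treatment. Control cells received no cytokine (their treatment is labelled as vehicle, and the columns of the count table name them untreated). The IL-4/13 condition received a pair of type 2 cytokines, IL-4 and IL-13, each at 50 ng/mL. The Inf condition received a mixture of inflammatory cytokines: IL-17A (50 ng/mL), TNF-α (20 ng/mL) and, at 0.5 ng/mL, IL-1β. The last condition, IL-4/13 + Inf, received all of them together. The cells are 1 established line cultured without other cell types, and no source used here says that the 3 libraries of a condition came from separate cultures, so p-values measure only the spread between these libraries.

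Prostaglandins are short-lived lipid mediators of inflammation, pain, fever and smooth muscle tone. Cytosolic phospholipase A2 (Pla2g4a) frees arachidonic acid from membranes, the cyclooxygenases COX-1 (Ptgs1) and COX-2 (Ptgs2) turn it into prostaglandin H2, and terminal synthases make the end products from that common intermediate. COX-1 is known as the constitutive enzyme and COX-2 as the one that inflammatory cytokines induce in fibroblasts. The products act on G protein-coupled receptors, each of which binds mainly one prostaglandin, and 15-hydroxyprostaglandin dehydrogenase (Hpgd) starts their breakdown.

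Total counts per library ranged from 13446005 to 20775769. Values below are CPM, a gene's counts scaled to a common library size (TMM factors of 0.9858 to 1.017), and differences are log2 fold changes from edgeR's quasi-likelihood test with Benjamini-Hochberg adjustment over all 14810 genes tested. A gene was called higher or lower at an adjusted p under 0.05 and a log2 fold change beyond 0.25. Conditions whose libraries do not overlap were common among all tested genes. For IL-4/13 against control, 13.4% lay all above and 13.1% all below. These shares were 23.5% and 24.5% for Inf, and 23.4% and 22.8% for both against control. They were 18.3% and 16.8% for IL-4/13 + Inf against Inf, and 23.5% and 23.9% against IL-4/13. All 10 fibroblast markers were detected in each condition. Their summed level was 16666 to 19435 CPM in control and 14331 to 15123 CPM with IL-4/13. It was 13834 to 15261 CPM with Inf and 11769 to 12140 CPM with IL-4/13 + Inf. Col1a2 was the largest part of it, and the markers did not move together. From control to Inf, mean Dcn went from 103 to 1756 CPM, Lum from 2.25 to 22.4, Pdgfra from 196 to 384.5 and Pdgfrb from 269 to 481. Col1a1, Col1a2, Thy1, Vim and Fn1 averaged lower with Inf, and Col3a1 was nearly level (1733 and 1721 CPM). Of the 12 macrophage markers, Adgre1, Itgam and Tyrobp had at most 1 count in any library, but the summed level of the list was 23.4 to 27.4 CPM in control and 52.5 to 67.2 CPM in Inf, most of it Cd14. Of 8 mast cell markers 7 (all but Hdc) and 5 of 8 adipocyte markers had at most 3 counts in every library. The other adipocyte markers, Fabp4, Lipe and Pparg, averaged 11.3, 10.6 and 18.1 CPM in control. With Inf they averaged 30.1, 17.9 and 7.71 CPM. In bulk RNA, more cells of a type and more RNA per cell cannot be told apart.

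Of the 9 genes 7 passed the filter on low counts, and Hpgd and Ptger2 did not. The sequences around the annotated starts of 4 of the 7 are shown here because these genes moved most or in opposite directions: Ptgs2 and Ptges rose with Inf, Ptgs1 fell with Inf, and Ptgfr was lowest when all cytokines were combined. Each is 300 bases, from 250 bases before the start to 50 after it, 5′ to 3′ on the gene's strand, from RefSeq on GRCm38.p6, an earlier build than the GRCm39 to which the reads were aligned. The windows are chr1:150099781-150100080 (+) for Ptgs2, chr2:30903248-30903547 (-) for Ptges, chr2:36230176-36230475 (+) for Ptgs1 and chr3:151837479-151837778 (-) for Ptgfr. Capitals mark matches, on either strand, to the motifs listed after them.
Ptgs2: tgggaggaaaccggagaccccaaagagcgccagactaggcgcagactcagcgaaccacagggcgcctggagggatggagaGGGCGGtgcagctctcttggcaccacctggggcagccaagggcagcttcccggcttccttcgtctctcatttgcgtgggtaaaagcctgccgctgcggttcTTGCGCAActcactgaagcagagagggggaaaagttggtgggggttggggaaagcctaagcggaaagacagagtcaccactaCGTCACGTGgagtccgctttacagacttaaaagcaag
Ptges: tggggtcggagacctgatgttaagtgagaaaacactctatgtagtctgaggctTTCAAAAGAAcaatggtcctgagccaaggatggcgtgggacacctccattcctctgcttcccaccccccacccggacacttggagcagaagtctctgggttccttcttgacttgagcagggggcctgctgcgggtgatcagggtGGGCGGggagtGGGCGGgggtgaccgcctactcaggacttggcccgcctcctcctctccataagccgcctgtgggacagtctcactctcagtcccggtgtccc
Ptgs1: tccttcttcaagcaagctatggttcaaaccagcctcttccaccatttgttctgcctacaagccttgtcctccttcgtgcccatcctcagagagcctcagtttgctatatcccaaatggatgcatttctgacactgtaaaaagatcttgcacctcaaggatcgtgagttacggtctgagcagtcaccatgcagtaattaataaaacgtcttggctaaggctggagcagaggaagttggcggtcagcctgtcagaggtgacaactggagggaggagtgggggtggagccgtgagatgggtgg
Ptgfr: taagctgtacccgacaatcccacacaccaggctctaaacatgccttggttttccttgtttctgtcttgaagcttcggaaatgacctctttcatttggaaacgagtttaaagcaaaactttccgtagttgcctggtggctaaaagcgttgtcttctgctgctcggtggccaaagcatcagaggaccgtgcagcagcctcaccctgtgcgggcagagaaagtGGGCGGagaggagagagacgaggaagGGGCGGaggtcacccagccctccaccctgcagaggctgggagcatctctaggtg

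The search covered 8 motifs on both strands. They were the TATA box as TATAAA, the half-site of the cAMP response element as TGACG, the C/EBP motif as TTGCNNAA, the E-box as CACGTG, the GC box as GGGCGG, the AP-1 motif as TGANTCA, the STAT6 motif as TTC and GAA separated by 4 bases of any kind, and the NF-kB motif. The NF-kB motif was a single pattern that starts with GGG and ends with CC, with set choices of base at most positions between them. Positions are counted from 0 at the annotated first base of the transcript. The Ptgs2 window held TTGCGCAA at -69 to -62 and a GC box at -170 to -165. Just past the annotated start it held the reverse-strand half-site CGTCA at 13 to 17, which shares bases with an E-box at 16 to 21. Where transcription starts in these cells was not tested. The Ptges window held 2 GC boxes, ending at -48 and -37, and TTCAAAAGAA at -197 to -188. The Ptgfr window held 2 GC boxes, and the Ptgs1 window held no match to any of the 8.

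These motifs are common. Of 32851 promoter windows of the same length, 35.7% held a GC box, 20.8% the cAMP half-site, 13.6% a TATA box, 10.8% a C/EBP match, 7.81% an AP-1 match, 7.15% an E-box, 6.95% a STAT6 match and 4.51% an NF-kB match. Windows were found for 8 of the 9 genes, and for Ptgis none was matched. No NF-kB or AP-1 match lay in any of the 9 windows of these 8 genes (Pla2g4a has 2), which says only that the patterns searched for are absent from these 300 bases. Other forms of these sites were not searched for. Each match is a description of the sequence, since binding was not measured here.

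**Figure D1:**
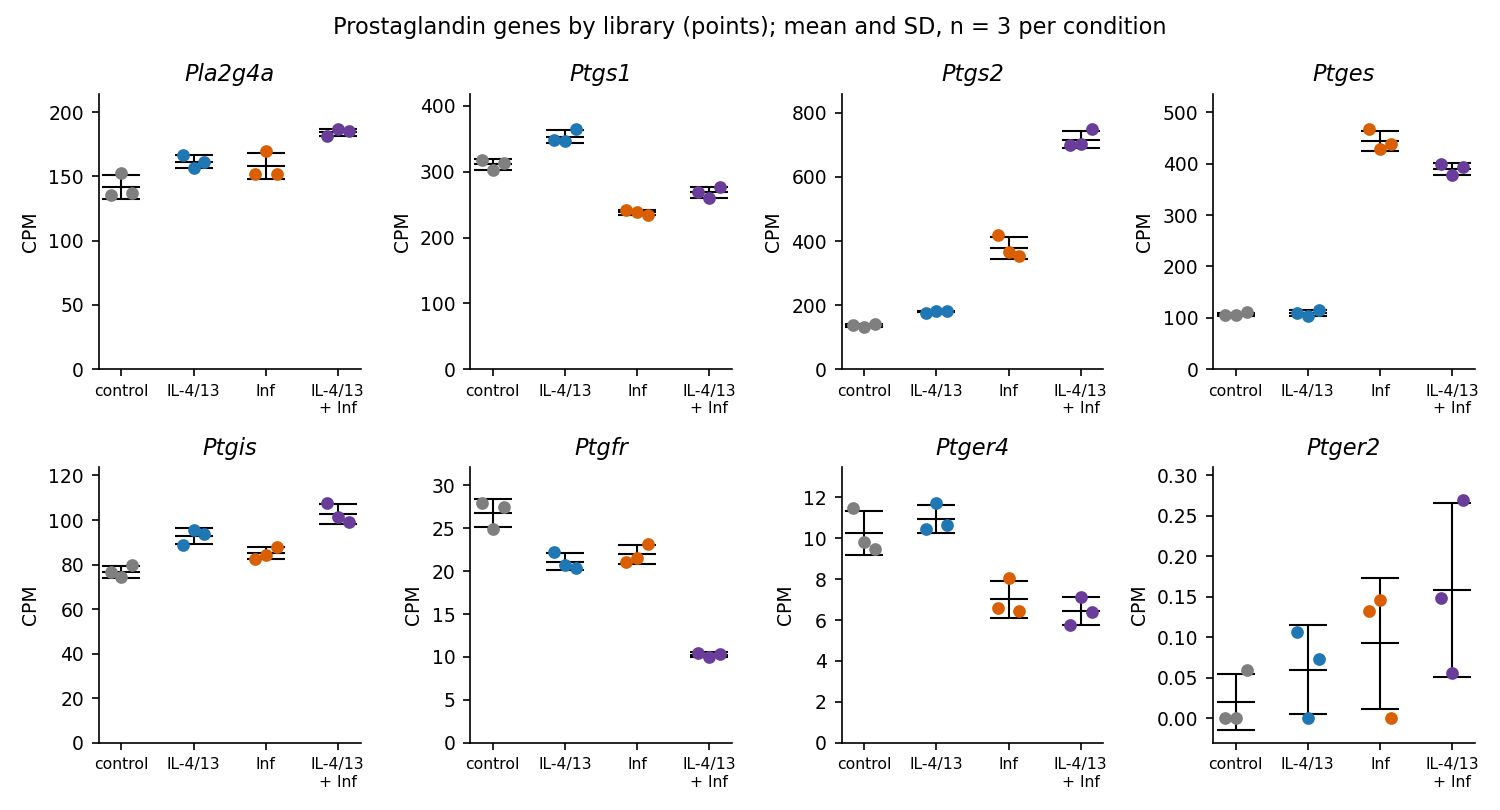
CPM of 8 of the 9 genes in each library (points, n = 3 per condition), with the mean and SD as bars, and conditions on the horizontal axis. Ptgs2 rises stepwise to 698 to 748 CPM in IL-4/13 + Inf, Ptges is high in both conditions with Inf, Ptgfr falls to 10.01 to 10.5 CPM in IL-4/13 + Inf, and Ptger2 stays under 0.3 CPM; Hpgd, at 0 counts, is not drawn.

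The pathway starts with Pla2g4a (ENSMUSG00000056220), the phospholipase that supplies arachidonic acid. Its level was 136, 153 and 137 CPM in the control libraries and 166, 156 and 161 CPM with IL-4/13. It was 152, 170 and 152 CPM with Inf and 181, 186 and 185 CPM with all cytokines. The IL-4/13 + Inf libraries were above every other library, whereas control and Inf overlapped. Pla2g4a was called higher only in IL-4/13 + Inf against control (log2 fold change 0.38, SE 0.051, adjusted p = 4.61e-07), and its other differences from control were 0.19 for IL-4/13 and 0.16 for Inf, under the threshold of 0.25. On chromosome 1, Pla2g4a lies 138741 bases from Ptgs2 in the GRCm38 annotation.

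The COX isoforms moved in opposite directions under Inf. Ptgs1 (ENSMUSG00000047250), the constitutive isoform, was at 318, 302 and 313 CPM in control and at 349, 347 and 364 CPM with IL-4/13. With Inf it was at 242, 239 and 234 CPM, below every library without Inf. With IL-4/13 + Inf it was at 268, 260 and 277 CPM, between the Inf and the control libraries. Ptgs1 fell with Inf alone (log2 fold change -0.38, SE 0.042, adjusted p = 5.54e-09) and was lower in IL-4/13 + Inf than in IL-4/13 by a similar size (-0.40, SE 0.041, adjusted p = 3.59e-09). The shift with IL-4/13 was small on both backgrounds, 0.18 (adjusted p = 0.00326) without Inf and 0.17 (adjusted p = 0.00264) with it, and passed no fold threshold.

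Ptgs2 (ENSMUSG00000032487), the inducible isoform, was at 138, 132 and 142 CPM in control. It was at 177, 181 and 181 CPM with IL-4/13, at 418, 367 and 353 CPM with Inf, and at 698, 702 and 748 CPM with IL-4/13 + Inf. The 4 conditions did not overlap at any step. Ptgs2 rose with IL-4/13 alone (log2 fold change 0.39, SE 0.052, adjusted p = 4.66e-06), with Inf alone (1.46, SE 0.052, adjusted p = 4.73e-20) and with both (2.38, SE 0.052, adjusted p = 3.81e-25), a 5.21-fold difference from control. The counts behind these levels were 2132 to 14077 reads per library.

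Adding IL-4/13 to Inf raised Ptgs2 by a further 0.92 (SE 0.049, adjusted p = 1.73e-14), 1.89-fold. The response to IL-4/13 was therefore larger with Inf than without it, by 0.53 on the log2 scale (interaction, SE 0.072, 95% interval 0.38 to 0.68, adjusted p = 1.53e-05). On the linear scale, IL-4/13 added 42.3 CPM (SE 3.30) to the control level and 337 CPM (SE 25.4) to the Inf level. Ptgs2 was thus higher with IL-4/13 on each background, and the step was larger on both scales when Inf was present. At the step from Inf to IL-4/13 + Inf, the summed level of the 12 macrophage markers went from 52.5 to 67.2 CPM to 50.3 to 57.2 CPM. Among them, Cd14 averaged 44.7 and 40.7 CPM, while Mrc1 was higher without overlap (2.06 to 2.18 CPM with Inf, and 2.81 to 3.17 CPM with both). Others were lower without overlap: Aif1 (1.53 to 3.03 CPM, then 0.893 to 1.52), Lyz2 (2.73 to 3.395 CPM, then 1.39 to 2.70) and Fcer1g (at most 4 counts). Cd14, Cd68, Csf1r and Cd74 overlapped. Of all tested genes, 18.3% were higher and 16.8% lower without overlap at this step. The part of the macrophage markers in the Ptgs2 values was not tested.

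A pair of noncoding genes beside Ptgs2 was examined after their values were seen. Ptgs2os starts 68 bases from the start of Ptgs2 on the other strand, and Ptgs2os2 lies 50816 bases away, also on the other strand. Ptgs2os averaged 1.23 ± 0.16 CPM in control, 1.48 ± 0.20 with IL-4/13, 2.09 ± 0.44 with Inf and 3.41 ± 0.11 with IL-4/13 + Inf (SD, n = 3 each). Ptgs2os2 averaged 11.5 ± 0.98, 12.5 ± 0.91, 32.4 ± 1.25 and 44.4 ± 0.85 CPM in the same order. Both rose with Inf (log2 fold changes 0.76, adjusted p = 0.0236, and 1.502, adjusted p = 2.75e-15) and again with IL-4/13 on top of Inf (0.71, adjusted p = 0.0277, and 0.45, adjusted p = 2.61e-05). Neither was called for IL-4/13 alone or for the interaction. In the annotation used, no exon of Ptgs2 overlaps another gene.

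Ptges (ENSMUSG00000050737) encodes microsomal prostaglandin E synthase-1, the inducible terminal enzyme for prostaglandin E2. Its level was 107, 105 and 111 CPM in control and 109, 104 and 116 CPM with IL-4/13, with overlapping libraries. With Inf it was 466, 428 and 439 CPM, and with IL-4/13 + Inf it was 400, 377 and 393 CPM, so every library with Inf was above every library without it. Ptges rose with Inf by 2.05 (SE 0.048, adjusted p = 3.12e-25), 4.14-fold, the largest rise with Inf among the 7 tested genes. With IL-4/13 alone the difference was 0.03 (95% interval -0.07 to 0.13, adjusted p = 0.784).

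Unlike Ptgs2, Ptges was lower when IL-4/13 was added to Inf. All 3 IL-4/13 + Inf libraries were below all 3 Inf libraries, as they were for 16.8% of all tested genes. The mean difference in Ptges was -54.6 CPM (SE 13.2). The log2 fold change of -0.19 (SE 0.045, adjusted p = 0.00213) did not pass the fold threshold, and the interaction of -0.22 (SE 0.066, adjusted p = 0.0616) did not pass the adjusted p.

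Ptgis (ENSMUSG00000017969), prostacyclin synthase, was at 76.5, 74.2 and 79.6 CPM in control, 88.9, 95.6 and 93.9 CPM with IL-4/13, 82.6, 84.5 and 88.1 CPM with Inf, and 108, 101 and 99.3 CPM with IL-4/13 + Inf. Ordered by level, from control through Inf and IL-4/13 to IL-4/13 + Inf, neighbouring conditions did not overlap. Ptgis rose with IL-4/13 both without Inf (log2 fold change 0.27, SE 0.053, adjusted p = 7.27e-04) and with it (0.27, SE 0.052, adjusted p = 2.04e-04), and the difference between these responses was 0.00 (95% interval -0.15 to 0.15). Both values lie just past the threshold of 0.25, and each dropped under it when 1 library was left out (0.249 without IL-4/13 replicate 2, and 0.239 without IL-4/13 + Inf replicate 1).

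Among the receptors, Ptgfr (ENSMUSG00000028036), the receptor for prostaglandin F2α, had the highest counts. It was at 27.9, 24.9 and 27.4 CPM in control, 22.2, 20.7 and 20.4 CPM with IL-4/13, and 21.1, 21.6 and 23.2 CPM with Inf. With IL-4/13 + Inf it was at 10.5, 10.01 and 10.3 CPM, below every other library. IL-4/13 and Inf alone overlapped with each other and lay below control. Ptgfr fell with IL-4/13 (log2 fold change -0.34, SE 0.083, adjusted p = 0.00752), with Inf (-0.29, SE 0.082, adjusted p = 0.00559) and with both (-1.38, SE 0.090, adjusted p = 7.01e-14), 0.385 of the control level.

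Adding IL-4/13 to Inf lowered Ptgfr by a difference of -1.09 (SE 0.091, adjusted p = 1.58e-10), to 0.469 of its level with Inf alone. That response differed from the one without Inf by -0.75 (interaction, SE 0.124, 95% interval -1.01 to -0.50, adjusted p = 2.22e-04). In CPM, IL-4/13 changed Ptgfr by -5.64 (SE 1.11) without Inf and by -11.7 (SE 0.67) with it. The small falls rested on the control libraries: without control replicate 1, the highest of them, the fall with IL-4/13 was -0.30 (adjusted p = 0.0583) and the fall with Inf was -0.25 (adjusted p = 0.0375), neither of them called. An unnamed transcript model, Gm43618, overlaps 329 exon bases of Ptgfr on the other strand at 0.389 to 1.20 CPM.

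Ptger4 (ENSMUSG00000039942) encodes EP4, a prostaglandin E2 receptor that raises cAMP. It was at 11.5, 9.80 and 9.48 CPM in control, 10.4, 11.7 and 10.7 CPM with IL-4/13, 6.58, 8.04 and 6.43 CPM with Inf, and 5.75, 7.14 and 6.41 CPM with IL-4/13 + Inf. Libraries with Inf were all below those without it, and IL-4/13 made no separation on either background. Ptger4 fell with Inf (log2 fold change -0.54, SE 0.131, adjusted p = 0.0012) and with both (-0.68, SE 0.132, adjusted p = 1.26e-04). For IL-4/13 the difference was 0.09 (95% interval -0.17 to 0.35) without Inf and -0.14 (95% interval -0.42 to 0.14) with it. These levels rest on 95 to 201 reads per library, and 1015 exon bases of Ptger4 overlap Ttc33, at 23.9 to 37.0 CPM, or a further gene on the other strand; whether counting used the strand is not given in the sources used here.

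The remaining genes were at or near the limit of detection. Hpgd (ENSMUSG00000031613), which inactivates prostaglandins, had 0 counts in all 12 libraries, which allows a level of up to 0.144 to 0.223 CPM (3 counts of each library's total, counting error only). Ptger2 (ENSMUSG00000037759), the EP2 receptor for prostaglandin E2, had 0, 0 and 1 counts in control, 2, 0 and 1 with IL-4/13, 2, 3 and 0 with Inf, and 3, 1 and 4 with IL-4/13 + Inf. Up to 246 of its exon bases overlap Gm17173, a gene on the other strand at 1.10 to 9.83 CPM. No difference in Hpgd or Ptger2 was detectable at this depth.

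**Figure D2:**
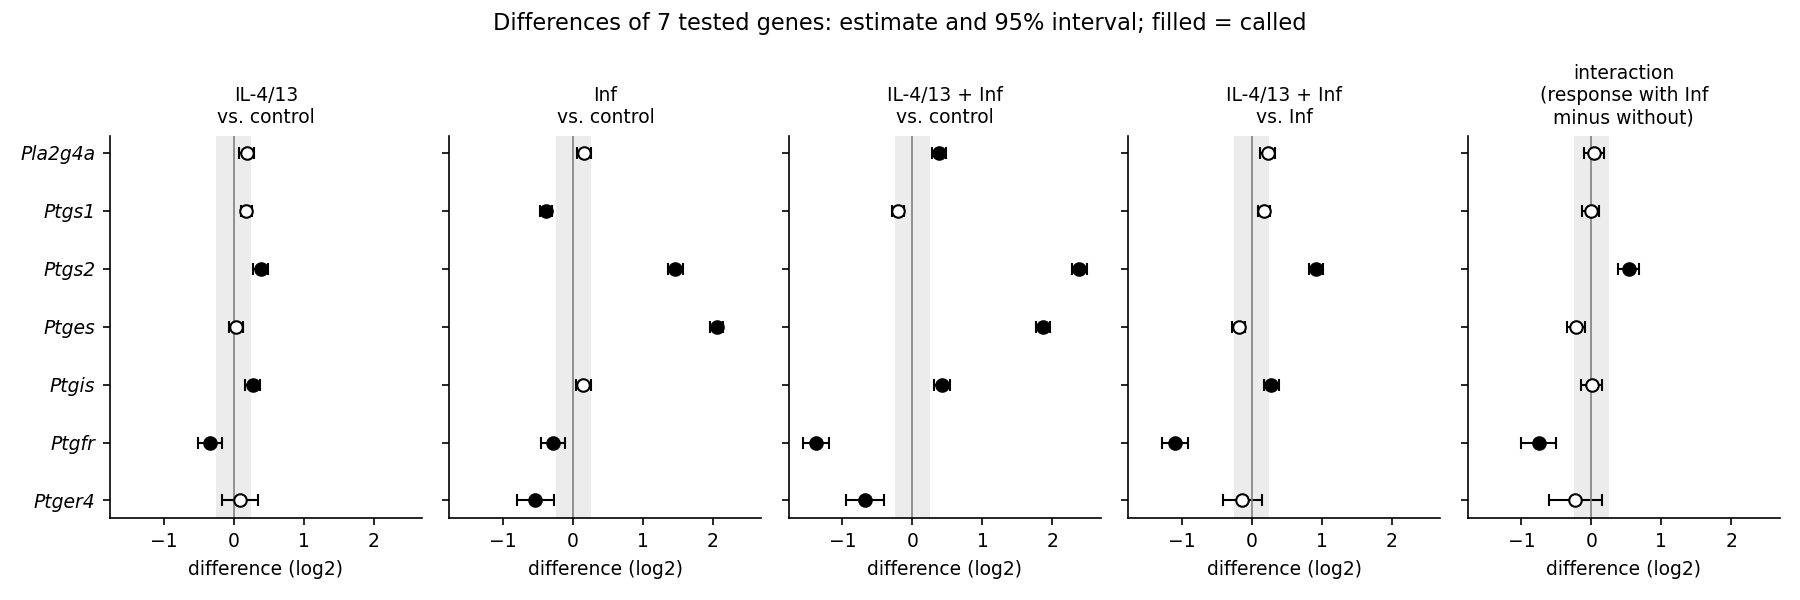
Log2 fold changes of the 7 tested genes (points, with 95% intervals as bars) in 5 comparisons. Filled points were called, and the gray band spans the log2 fold change threshold of 0.25 on either side of 0. Ptgs2 (0.53) and Ptgfr (-0.75) are the filled points of the interaction panel.

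Counted together, the 7 tested genes can be set against all tested genes. With IL-4/13 alone, 2 were called higher (Ptgs2, Ptgis) and 1 lower (Ptgfr), where 2.78% of all tested genes were called higher and 2.57% lower. With Inf alone, 2 were called higher (Ptgs2, Ptges) and 3 lower (Ptgs1, Ptger4, Ptgfr), against 16.3% and 15.3% of all tested genes. With both, 4 were called higher (Ptgs2, Ptges, Ptgis, Pla2g4a) and 2 lower (Ptger4, Ptgfr), against 13.4% and 11.5%.

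The effect of each treatment on top of the other was counted in the same way. IL-4/13 + Inf against Inf gave 2 higher (Ptgs2, Ptgis) and 1 lower (Ptgfr), against 7.55% and 7.00% of all tested genes. IL-4/13 + Inf against IL-4/13 gave 2 higher (Ptgs2, Ptges) and 3 lower (Ptgs1, Ptger4, Ptgfr), against 13.3% and 11.0%. In the interaction 1 gene was higher (Ptgs2) and 1 lower (Ptgfr), against 1.52% and 1.59%. With 7 genes, 1 call is a large share of the list, so these counts are read only beside the background. The median log2 fold change over the 7 was 0.18, 0.15 and 0.38 for IL-4/13, Inf and both against control, where the median over all tested genes was -0.0014, 0.0073 and -8.4e-04. These comparisons share control or Inf libraries and are not independent of each other.

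Dividing by the bases of each gene's exons (GENCODE M21, GRCm38) allowed levels of different genes to be compared. In control, Ptgs1 led at 80.1 ± 2.03 CPM per kb, followed by Ptgs2 at 30.0 ± 1.12, Ptgis at 29.9 ± 1.06, Ptges at 27.3 ± 0.75 and Pla2g4a at 22.2 ± 1.49 (SD, n = 3 each). Ptgs2 and Ptgis did not differ beyond their spread. The receptors were far lower, with Ptgfr at 3.95 ± 0.24 and Ptger4 at 1.54 ± 0.16 CPM per kb.

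With Inf the order became Ptges (113 ± 5.02 CPM per kb), Ptgs2 (82.8 ± 7.48), Ptgs1 (61.3 ± 1.09), Ptgis (33.1 ± 1.08) and Pla2g4a (24.7 ± 1.59). With IL-4/13 + Inf, Ptgs2 led at 156 ± 6.02, ahead of Ptges at 99.2 ± 2.94 and Ptgs1 at 69.1 ± 2.23, and Ptgfr and Ptger4 were at 1.52 ± 0.038 and 0.968 ± 0.10 CPM per kb. With the length of the longest transcript instead, the leading gene was the same in control (Ptgs1, 108 CPM per kb), with Inf (Ptges, 122) and with all cytokines (Ptgs2, 161), but other genes changed places. Pla2g4a then lay above Ptgis in each condition (41.1 and 36.4 in control), Ptgs2 in control was below both at 30.9, and with all cytokines Ptger4 (1.71) was above Ptgfr (1.55).

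The ratio of Ptgs2 to Ptgs1 describes the balance of the COX isoforms within each library. Per kb it was 0.375 ± 0.010 in control, 0.431 ± 0.011 with IL-4/13, 1.35 ± 0.10 with Inf and 2.26 ± 0.049 with IL-4/13 + Inf (SD, n = 3 each). The ratio was under 1 in the 6 libraries without Inf and over 1 in the 6 with it. The level of 1 depends on the length used: with the longest transcripts the mean with Inf was 1.02, with 1 library at 0.973, and with IL-4/13 + Inf it was 1.72. Ptgs2 to Ptges went from 1.10 ± 0.014 in control to 1.41 ± 0.077 with IL-4/13, 0.731 ± 0.040 with Inf and 1.58 ± 0.069 with IL-4/13 + Inf, so the COX-2 transcript was the more abundant of that pair except with Inf alone.

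**Figure D3:**
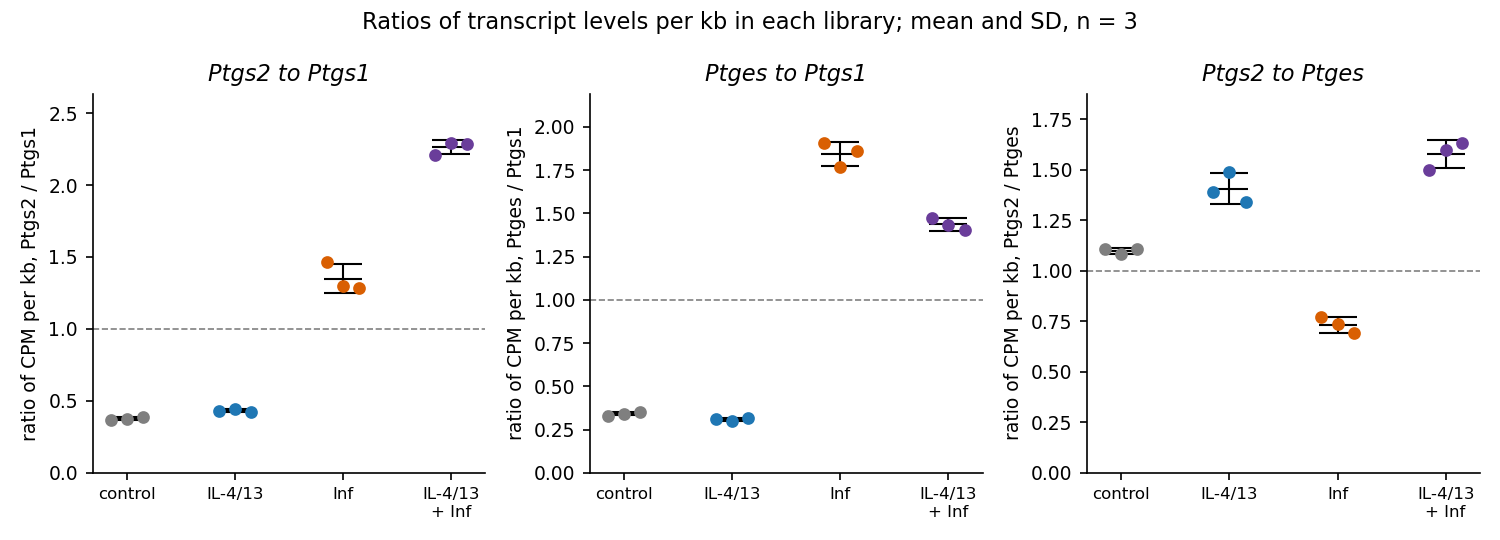
Ratios of CPM per kb between pairs of genes in each library (points, n = 3 per condition), with mean and SD as bars and a dashed line at 1. Ptgs2 to Ptgs1 is 0.367 to 0.387 in control and 2.21 to 2.29 in IL-4/13 + Inf, and Ptges to Ptgs1 is highest with Inf alone.

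The other genes of the pathway were taken from lists chosen, like the 9 genes, with earlier results of these data known. Of 8 other prostanoid synthases 5 were tested, and with Inf 3 rose and the other 2 were not called, where 16.3% of all tested genes were called higher and 15.3% lower. Their median log2 fold change was 0.41, against 0.0073 over all genes. Ptges2, a second membrane-bound prostaglandin E synthase, went from 20.7 ± 0.11 to 46.3 ± 0.43 CPM (log2 fold change 1.16, adjusted p = 1.55e-14). Akr1b3, an aldose reductase that also makes prostaglandin F2α, went from 63.6 ± 6.12 to 122 ± 19.6 CPM (0.94, adjusted p = 0.00558), and Cbr1, a carbonyl reductase, from 23.9 ± 1.96 to 31.9 ± 2.71 CPM (0.41, adjusted p = 3.84e-04). None of the 5 was called in IL-4/13 + Inf against Inf, where Ptges2 differed by -0.14.

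Of 22 other genes for release and handling of arachidonic acid 13 were tested. With Inf 2 rose and 2 fell, both near the shares over all tested genes (16.3% higher and 15.3% lower). With IL-4/13 added to Inf 4 rose and 1 fell, beside 7.55% and 7.00% of all genes, with a median log2 fold change of 0.15 against -0.0098 over all genes. Pla2g7, the platelet-activating factor acetylhydrolase, fell most, from 119 ± 4.32 CPM in control to 28.0 ± 3.51 with Inf (-2.08, adjusted p = 1.1e-21) and on to 19.8 ± 0.18 with IL-4/13 + Inf (-0.50 against Inf, adjusted p = 1.01e-05). S100a10 fell with Inf (-0.56, adjusted p = 1.06e-10), and Pla2g6, a calcium-independent phospholipase A2, rose (0.42, adjusted p = 3.32e-04).

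The 4 that rose with IL-4/13 on top of Inf were Daglb, a diacylglycerol lipase (0.57, adjusted p = 4.51e-05), Pla2g15, the lysosomal phospholipase A2 (0.31, adjusted p = 3.87e-05), Pla2g12a (0.25, adjusted p = 0.00497) and Pla2g4b. The Pla2g4b difference of 1.62 (adjusted p = 0.0312) is between means of 0.223 and 0.715 CPM and was lost under 5 of 17 alternatives. The Pla2g12a value fell under the threshold of 0.25 in 3 of 19. Pla2g15 was the only one of the 13 called in the interaction (0.37, SE 0.074, adjusted p = 0.00232), where 1.52% of all tested genes were called higher and 1.59% lower. With IL-4/13 alone Pla2g15 differed by -0.06.

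All 6 genes for prostaglandin transport and further breakdown were tested. With Inf 3 rose and 1 fell (16.3% and 15.3% of all tested genes), and with IL-4/13 added to Inf 1 rose and 2 fell (7.55% and 7.00% of all). The median log2 fold changes were 0.52 and -0.18. Slco3a1, a transporter that carries prostaglandins, rose at both steps, from 56.0 ± 3.84 CPM in control to 107 ± 7.53 with Inf (0.94, adjusted p = 1.19e-13) and 154 ± 4.45 with IL-4/13 + Inf (0.52 against Inf, adjusted p = 7.03e-08). Its interaction of 0.33 (adjusted p = 0.0288) was lost under 6 of 18 alternatives. Abcc4, an exporter of prostaglandin E2, rose with Inf (0.97, adjusted p = 5.76e-12) and differed by -0.18 on adding IL-4/13.

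Ptgr1, a reductase of prostaglandin metabolites, rose with Inf (0.51, adjusted p = 5.4e-04) and fell when IL-4/13 was added (-0.47, adjusted p = 0.00276). Akr1c18, a hydroxysteroid dehydrogenase that also acts on prostaglandins, fell at both steps, from 10.4 ± 0.53 CPM in control to 7.41 ± 0.55 with Inf (-0.48, adjusted p = 0.00225) and 3.92 ± 0.30 with IL-4/13 + Inf (-0.92 against Inf, adjusted p = 1.09e-05). Its interaction was -0.65 (adjusted p = 0.0524).

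Of 6 other prostanoid receptors 2 were tested. With Inf 1 was called higher and 0 lower, beside 16.3% and 15.3% of all tested genes. Ptgir, the prostacyclin receptor, rose with Inf from 5.02 ± 0.91 to 10.2 ± 1.25 CPM (1.01, adjusted p = 1.95e-06) and stayed at 9.01 ± 0.85 CPM with IL-4/13 + Inf. Ptger1, the EP1 receptor, was at 0.451 to 0.704 CPM on average and was not called in any comparison. Ptgir was thus called higher with Inf, where Ptger4 and Ptgfr were called lower.

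Of 14 lipoxygenase and leukotriene genes 4 were tested, the others being too low. With Inf 1 was called higher and 1 lower, beside 16.3% and 15.3% of all tested genes. With IL-4/13 added to Inf these numbers were 0 and 1 (7.55% and 7.00% of all). With IL-4/13 alone they were 1 and 0 (2.78% and 2.57% of all). Ephx2, soluble epoxide hydrolase, fell with Inf (-0.96, adjusted p = 8.33e-04), and Alox5ap, the 5-lipoxygenase-activating protein, was called higher with Inf (1.24, adjusted p = 0.0218) and lower on adding IL-4/13 (-1.38, adjusted p = 0.0217), at means under 1 CPM. These calls of Alox5ap were lost under 5 of 18 and 4 of 17 alternatives. Ltc4s was called higher with IL-4/13 alone (1.26, adjusted p = 0.0202), from 0.899 to 2.17 CPM. That call was lost with DESeq2, with a mean of at least 50 counts required, at an adjusted p under 0.01, without control replicate 1 and without IL-4/13 replicate 2. Lta4h, leukotriene A4 hydrolase, was at 67.9 to 80.9 CPM and called in no comparison.

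**Figure D4:**
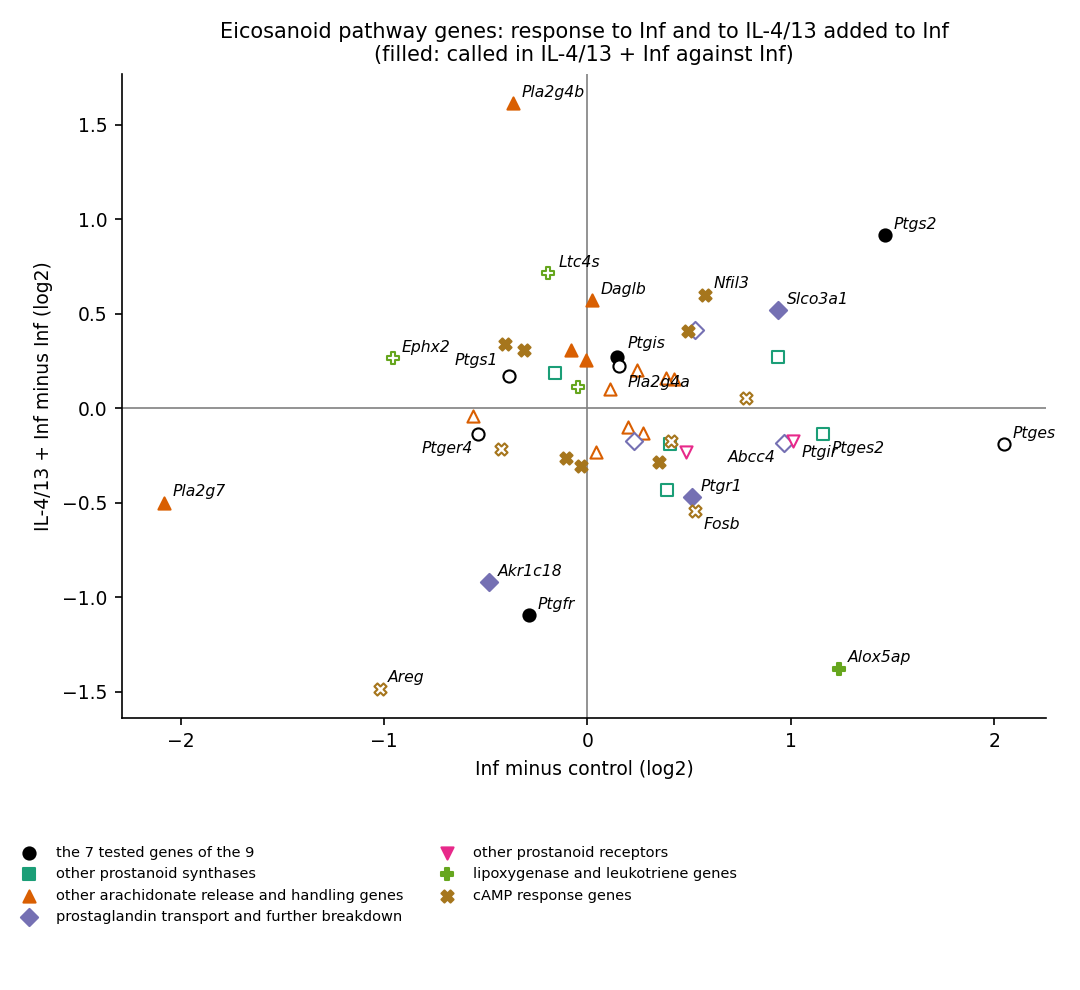
Log2 fold change of each tested pathway gene in Inf against control (horizontal) and in IL-4/13 + Inf against Inf (vertical), one point per gene, with the gene lists as colours and shapes and filled points called on the vertical axis. The axes share the Inf libraries, so their relation is not a result; Ptgs2 (1.46, 0.92) and Slco3a1 (0.94, 0.52) lie at the upper right and Ptgfr (-0.29, -1.09) with Akr1c18 (-0.48, -0.92) at the lower left.

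EP2 and EP4 raise cAMP, so 12 genes known to respond to cAMP were described as well, all of them tested. With Inf 6 rose and 2 fell (16.3% and 15.3% of all tested genes), and with IL-4/13 added to Inf 4 rose and 3 fell (7.55% and 7.00% of all). The number that fell with Inf was near the share over all genes. The median log2 fold changes were 0.16 and -0.19. Nfil3, a transcription factor, rose at each step, from 36.1 ± 2.89 CPM in control to 52.0 ± 2.96 with IL-4/13, 53.8 ± 1.01 with Inf and 81.7 ± 3.35 with both. Pde4b, a cAMP phosphodiesterase, rose with Inf (0.78, adjusted p = 5.67e-10) but differed by 0.06 on adding IL-4/13.

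Crem rose with Inf (0.49, adjusted p = 0.00263) and again with IL-4/13 (0.41, adjusted p = 0.0126), and Fosb was called higher with Inf (0.53, adjusted p = 0.0426), a call lost under 10 of 18 alternatives. Nr4a1 and Pde4d fell with Inf (-0.31 and -0.40) and rose on adding IL-4/13 (0.31, adjusted p = 1.33e-04, and 0.34, adjusted p = 0.00935). The calls of Crem and Pde4d on adding IL-4/13 were each lost under 1 of 19 alternatives. Crem was at 0.30 (adjusted p = 0.109) without IL-4/13 + Inf replicate 3. Pde4d was at 0.236 (adjusted p = 0.0568) without Inf replicate 3. The 3 that fell on adding IL-4/13 were Dusp1 (-0.31, adjusted p = 0.0152), Per1 (-0.28, adjusted p = 0.0374) and Nr4a2 (-0.26, adjusted p = 0.00891), calls that were lost under 4, 5 and 2 of 19 alternatives. In the interaction Nr4a1 was higher (0.39, adjusted p = 0.0027) and Nr4a2 lower (-0.47, adjusted p = 0.0055).

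For each of the 7 tested genes, the genes with the most similar pattern were found among 11247 that averaged 5 CPM or more in some condition, using the root-mean-square difference of log2 CPM, centred per gene, over all 12 libraries. The nearest to Ptgs2 were Adamts9 (0.146), Adora2b (0.149) and Pcdh7 (0.154), and Adamts9 averaged 18.9, 23.4, 51.3 and 83.4 CPM from control to the combined treatment. The nearest to Ptges were Dram1 (0.0936), Gm20186 and Tnip1. The nearest to Ptgs1 were Smtn (0.0415), Gsn and Zyx.

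Ptgis was nearest to Irf2 (0.0391), Smurf1 and Cdc42ep2, and Pla2g4a was nearest to Chuk (0.0405), Oxsr1 and Cyld. The receptor Ptger4 was nearest to Dlc1 (0.0979), Dixdc1 and Prkca. The nearest to Ptgfr were Akr1c18 (0.124), Mgst3 (0.129) and Tril (0.148), of which Mgst3 averaged 33.0, 23.5, 23.7 and 12.8 CPM in the 4 conditions. The distance grows with how much a gene varies, so distances are compared only within 1 gene's list.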

How the data were processed

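Poly(A) RNA was taken from 3T3-L1 cells in 4 conditions with 3 libraries each (PureLink extraction, Illumina stranded mRNA libraries). The authors deposited raw counts per gene, whole numbers without normalization; the submitters' processing notes name STAR, featureCounts and GRCm39, with no versions, and the strand setting is not given in the sources used here. For 19511 identifiers without a symbol, one was looked up in a list of mouse gene names.

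The counts were tested with edgeR 4.0.16 (R 4.3.3): filterByExpr by condition (minimum count 10, minimum total 15), TMM scaling and a robust quasi-likelihood fit of all 12 libraries, with Benjamini-Hochberg adjustment over 14810 genes. The thresholds are those of the study's pseudobulk comparison; the study names DESeq2 for these libraries, which was run as an alternative (1.42.0). The fits were checked on simulated counts. Alternatives were other scalings and filters, only the compared groups, a replicate block, each library left out, and stricter thresholds; a length from the longest transcript was added after seeing the data. The replicate numbers did not pair the libraries. Depth was 13446005 to 20775769 counts per library, and intervals and floors cover counting error only where they come from counts.

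The 9 genes and all lists were chosen with earlier results of these data known. From the lists, genes called in IL-4/13 + Inf against Inf or in the interaction were named, and the 3 largest called in Inf against control; lists of 8 or fewer tested genes could be named whole. Figures were drawn with matplotlib 3.10.9. Single-cell, protein and animal data were not analysed here.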

Additional observations from a re-analysis of the deposited data

Results flagged for a closer look

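The response to IL-4/13 differed with and without Inf, by the interaction test of edgeR, for 7 of the genes described. Of all tested genes, 1.52% were called higher and 1.59% lower in the interaction. Among the 9 prostaglandin genes these were Ptgs2, with a difference between responses of 0.53 on the log2 scale, and Ptgfr, with -0.75. Ptgs2 was higher in all 3 IL-4/13 libraries than in all control libraries. It was also higher in all 3 IL-4/13 + Inf libraries than in all Inf libraries, and Ptgfr was lower in all 3 in both. Without Inf, 13.4% of all tested genes lay all above and 13.1% all below, and with Inf 18.3% and 16.8%. In the wider pathway the genes called in the interaction were Pla2g15 (0.37), Slco3a1 (0.33, adjusted p = 0.0288), Nr4a1 (0.39), Nr4a2 (-0.47) and Alox5ap (-2.22, adjusted p = 0.0485). Their lists had 13 (Pla2g15), 6 (Slco3a1), 12 (Nr4a1 and Nr4a2) and 4 (Alox5ap) tested genes. None of the 5 other synthases or 2 other receptors tested was called. The Slco3a1 call was lost under 6 of 18 alternatives and that of Alox5ap, which has means under 1 CPM, under 12 of 16. No group had enough libraries for a test of single outlying libraries. The spread between 2 libraries was described by a chi-square of their counts per degree of freedom. It was 8.35 and 8.05 for Inf replicate 3 against Inf replicates 1 and 2, and 4.57 between those 2. In the other conditions it was 2.25 to 4.5.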

How the results depend on the processing

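No alternative changed the direction of a called difference of the 9 genes. With a log2 fold change beyond 1 required, the numbers of the 7 tested genes called higher and lower were 0 and 0 for IL-4/13 against control, 2 and 0 for Inf, 2 and 1 for both, 0 and 1 for IL-4/13 + Inf against Inf, 2 and 1 for IL-4/13 + Inf against IL-4/13, and 0 and 0 for the interaction. At that threshold, 87 and 21 of all 14810 tested genes were called higher and lower for IL-4/13 against control. The numbers over all genes were 786 and 309 for Inf, and 714 and 382 for both. They were 133 and 105 for IL-4/13 + Inf against Inf, 630 and 306 against IL-4/13, and 17 and 23 for the interaction. Leaving out 1 library at a time gave, for IL-4/13 against control, 1 to 2 higher (1 without IL-4/13 replicate 2, where Ptgis was at 0.249) and 0 to 1 lower (0 without control replicate 1, where Ptgfr was at -0.30), for IL-4/13 + Inf against Inf 1 to 3 higher (1 without IL-4/13 + Inf replicate 1, where Ptgis was at 0.239, and 3 without Inf replicate 2, where Pla2g4a was at 0.28, adjusted p = 2.36e-04), and for the interaction 1 to 2 lower (2 without IL-4/13 replicate 2, where Ptges was at -0.26, adjusted p = 0.0414). The cause of these changes was not tested beyond the smaller number of libraries.

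Signs turned only for differences near 0 that were not called. The Ptgis interaction became -0.0048 with library size alone, -0.014 with a mean of at least 50 counts, and ranged from -0.034 to 0.034 with 1 library left out (also -0.026, -0.032, -0.011 and -0.0029). With 1 library left out, the Ptgs1 interaction ranged from -0.035 to 0.0088 (also 0.0040, 0.0074 and 0.0057), the Pla2g4a interaction from -0.025 to 0.092, and Ptges in IL-4/13 against control from -0.0069 to 0.066.

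The replicate numbers gave correlations of -0.146 to 0.0543 between same-numbered libraries and 0 of 12 libraries correlated best with their own number, so they mark no pairing. With a replicate block the counts called higher and lower were 2 and 1, 2 and 3, 4 and 2, 2 and 1, 2 and 3, and 1 and 1 in the 6 comparisons, as without the block. Among list genes, calls of Alox5ap, Fosb, Pla2g4b, Per1, Dusp1 and the Slco3a1 interaction were lost under several alternatives, and the fold threshold of 1 left 786 and 309 genes called higher and lower for Inf against control, of 2420 and 2266. Depth limits Ptger2 and Hpgd, for which 3 counts correspond to 0.144 to 0.223 CPM.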

Other observations

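Hdc, the enzyme that makes histamine and the one mast cell marker of 8 that was detected above 3 counts in a library, averaged 0.519 CPM in control, 0.425 with IL-4/13, 0.245 with Inf and 2.27 with IL-4/13 + Inf, on 1 to 53 reads per library. It is named here after its values were seen. The remaining 7 mast cell markers had at most 3 counts in every library.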
